A study of Mus musculus with 12 samples.

Results

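The genes described here are 10 genes of the Notch pathway: the receptors Notch1, Notch2, Notch3 and Notch4, the nuclear partner Rbpj, and the target genes Dtx1, Hes1, Hes5, Nrarp and Ptcra. They were chosen by name, because the transcription factor LRF (gene Zbtb7a) restrains Notch signals in other blood lineages, and all 10 had a row among the 26629 genes of the deposited expression table. The study sequenced RNA of sorted T cells from C57BL/6 mice, 40000 cells per library, in 12 libraries that form 4 groups of 3. KO mice carried floxed Lrf alleles (Lrf fl/fl) and a Cre driven by Cd4, which acts in T-lineage cells, and control mice carried the same floxed alleles without the Cre, so floxed Lrf was shared by all 4 groups. The first group was CD8αα T cells of KO spleen and the next was CD8αα intraepithelial lymphocytes (IELs, T cells that reside among gut epithelial cells) of control mice, both sorted as CD45+ TCRβ+ CD4- CD8α+ CD8β- cells. The remaining groups were IEL precursors (IELp) of KO thymus and IELp of control thymus, the thymic cells from which CD8αα IELs arise, sorted as TCRβ+ CD4- CD8α- CD5hi cells that were also CD122+ H-2Kb+ CD44- PD-1hi. The labels give no ages. Nor do they say whether the replicates of a group are different mice, and the p-values cover only the spread between these libraries, which may be technical.

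Notch receptors are cleaved by ADAM10 and then by γ-secretase when a ligand on a neighbouring cell binds them, and the released intracellular domain enters the nucleus, where it joins RBPJ and Mastermind proteins on DNA and turns on target genes. In the thymus Notch1 signals commit progenitors to the T lineage and help them through pre-TCR selection, and they decline as thymocytes mature. In mouse bone marrow, loss of LRF lets Notch signals divert lymphoid progenitors from the B to the T lineage.

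The promoter windows of 3 members are shown because they hold no annotated exon base and cover the receptor and targets described below: Notch3, whose transcript differed most between KO and control IELp among the receptors, Nrarp, and Ptcra, the only one of the 3 with the core letters bound by RBPJ. Each is the 250 bases before the gene's start in RefSeq on GRCm38.p6, printed 5′ to 3′ on the gene's own strand, with capitals marking TGGGAA. They lie at chr17:32166891-32167140 on the minus strand for Notch3, chr2:25180508-25180757 on the plus strand for Nrarp and chr17:46763713-46763962 on the minus strand for Ptcra.
Notch3: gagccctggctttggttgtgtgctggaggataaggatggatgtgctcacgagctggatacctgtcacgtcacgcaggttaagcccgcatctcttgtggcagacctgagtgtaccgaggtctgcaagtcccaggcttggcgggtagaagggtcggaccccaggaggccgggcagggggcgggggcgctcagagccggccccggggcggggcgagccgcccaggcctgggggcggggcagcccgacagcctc
Nrarp: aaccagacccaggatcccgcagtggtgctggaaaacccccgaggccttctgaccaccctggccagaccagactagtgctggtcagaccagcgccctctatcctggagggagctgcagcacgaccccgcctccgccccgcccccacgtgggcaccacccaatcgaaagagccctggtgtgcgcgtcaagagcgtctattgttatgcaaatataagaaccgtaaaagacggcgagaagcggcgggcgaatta
Ptcra: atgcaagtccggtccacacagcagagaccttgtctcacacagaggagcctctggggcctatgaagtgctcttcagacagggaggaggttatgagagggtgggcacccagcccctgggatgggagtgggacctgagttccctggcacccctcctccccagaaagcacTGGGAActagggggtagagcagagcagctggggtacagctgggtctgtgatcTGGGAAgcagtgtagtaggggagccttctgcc

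The core TGGGAA was searched on both strands, so TTCCCA counted as a match. In the Ptcra window it occurs at 84 and at 32 bases before the gene's start, and in the Notch3 and Nrarp windows neither strand holds it. RefSeq windows were at hand for 9 of the 10 genes, all but Hes1, and 3 of those 9 held the core (Hes5, Rbpj and Ptcra), against 21.5% of the windows of 27025 genes. Among the 9 genes the E box CACGTG occurs only in the Nrarp window, against 6.0% of all windows. The N box CACNAG, which HES repressors bind, occurs in the Notch3, Nrarp, Notch1, Notch2 and Dtx1 windows, against 36.7% of all windows. None of the 3 printed windows holds both the core and either box, so no matches overlap it. A match is a description of letters and not a binding site, and no match says only that the letters are not in this window.

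Between 13432598 and 19947734 read pairs were counted in genes per library. Zbtb7a, the targeted gene, was at 61.3 ± 2.13 FPM in KO spleen CD8αα cells, 111 ± 8.91 FPM in control CD8αα IELs, 45.5 ± 4.66 FPM in KO IELp and 75.4 ± 6.27 FPM in control IELp (SD, n = 3 each), so its transcript stayed in KO cells. The labels do not name the floxed exons, and reads outside a deleted part are counted too. FPM is the fragments of a gene scaled to a common total of fragments in genes per library, and is not divided by gene length. The labelled cells carried T cell RNA in every group, with Cd3e at 945 FPM or more on average, and Cd8a averaged 838 FPM in KO spleen cells and 2508 FPM in control IELs, against 46.5 FPM in KO IELp and 18.7 FPM in control IELp. Replicate 3 of the control IELs stood apart: its counts differed from replicates 1 and 2 with a chi-square of 13 and 18.2 per degree of freedom, against 4.30 to 8.34 for the other replicate pairs of the 4 groups, so results that rest on the IELs are also given without it. KO CD8αα cells came from spleen and control CD8αα cells from gut, so genotype and tissue cannot be told apart in that comparison. In bulk RNA, fewer cells of a type and less RNA per cell cannot be told apart.

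Notch3 (chromosome 17, 32120820 to 32166852, minus strand, mm10) was the receptor whose level differed most between the groups. In the thymic precursors it rose with LRF loss, to 58.9, 46.7 and 36.1 FPM in KO IELp, against 1.71, 2.41 and 4.86 FPM in control IELp. Every KO library lay above every control library, by a wide gap. The log2 fold change was 4.02 (SE 0.26, edgeR quasi-likelihood test, adjusted p = 1.01e-07), and over 13 alternative fits it ranged between 3.65 and 4.52 and passed the threshold of 0.05 in each. NOTCH3 is a receptor that is normally high in immature thymocytes before the mature αβ T cell stage and in the pericytes of blood vessels.

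In the mature cells Notch3 stayed measurable in KO and was near 0 in control. KO spleen CD8αα cells had 15.8, 12.2 and 13.5 FPM, against 0.0614, 0.386 and 0 FPM in control IELs, which held 7 Notch3 counts in all. The difference was 6.44 on the log2 scale (SE 0.49, edgeR adjusted p = 2.20e-06), or 5.82 without IEL replicate 3 (adjusted p = 6.42e-07), and it ranged between 3.70 and 8.47 over the 13 alternative fits, lowest with limma on log2(FPM + 1) and highest without IEL replicate 2, which holds most of the 7 counts. From precursor to mature cell Notch3 was lower in both genotypes: by log2 -1.65 in KO spleen cells against KO IELp (SE 0.17, edgeR adjusted p = 3.54e-06) and by -4.10 in control IELs against control IELp (SE 0.77, edgeR adjusted p = 7.77e-04; -6.13 to -1.73 over the alternative fits).

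Values of other cell types were read beside Notch3. The summed level of 14 stromal, pericyte and smooth muscle genes was 34.8 to 41.9 FPM in KO IELp and 10.9 to 17.0 FPM in control IELp, so it moved with Notch3 in the precursors. In KO IELp most of that sum was Mcam, at 30.5 ± 3.39 FPM, against 6.39 ± 1.70 FPM in control IELp (SD, n = 3 each). In control IELp Tagln, at 4.78, 4.29 and 5.67 FPM, made up much of the rest. Cspg4 was at 1.71 ± 0.259 FPM in KO IELp and 0.142 ± 0.123 FPM in control IELp. The defining genes Col1a2, Col3a1, Pdgfra, Rgs5, Des, Dcn and Lum had no count in any library of either precursor group, 7 of the 14 genes, and Pdgfrb fell, at 0.732 ± 0.0488 FPM in KO IELp and 2.51 ± 0.666 FPM in control IELp. Among the mature cells the same sum ran the other way, 37.9 to 47.0 FPM in KO spleen cells and 160 to 198 FPM in control IELs, where Notch3 was near 0. That sum too was mostly Mcam. Of the 5 genes of the list tested there, 4 were called lower in KO spleen cells (Col1a1, Col1a2, Mcam and Tagln). Only Pdgfrb was called higher, at 1.68 ± 0.935 FPM, against 0.145 ± 0.251 FPM in control IELs, the same direction as Notch3. The part of stromal RNA in the Notch3 values was not tested. The summed level of 10 genes of immature and double-positive thymocytes was 220 to 230 FPM in KO IELp and 215 to 229 FPM in control IELp, ranges that overlap. Most of that sum was Cd1d1, at 109 FPM on average in each precursor group, and Themis. Of the 10 genes Cd4 was called lower in KO IELp and 0 were called higher. In KO spleen cells the same sum was 201 to 232 FPM, although Rag1 and Rag2 had no count there. Notch3 shares 6.03% of its exon bases with the antisense gene Gm17276, which had 96 to 135 counts in KO IELp libraries and 3 to 8 in control IELp libraries. How the counting treated strand is not given, and without strand the reads of a gene and its antisense partner cannot be told apart.

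**Figure D1:**
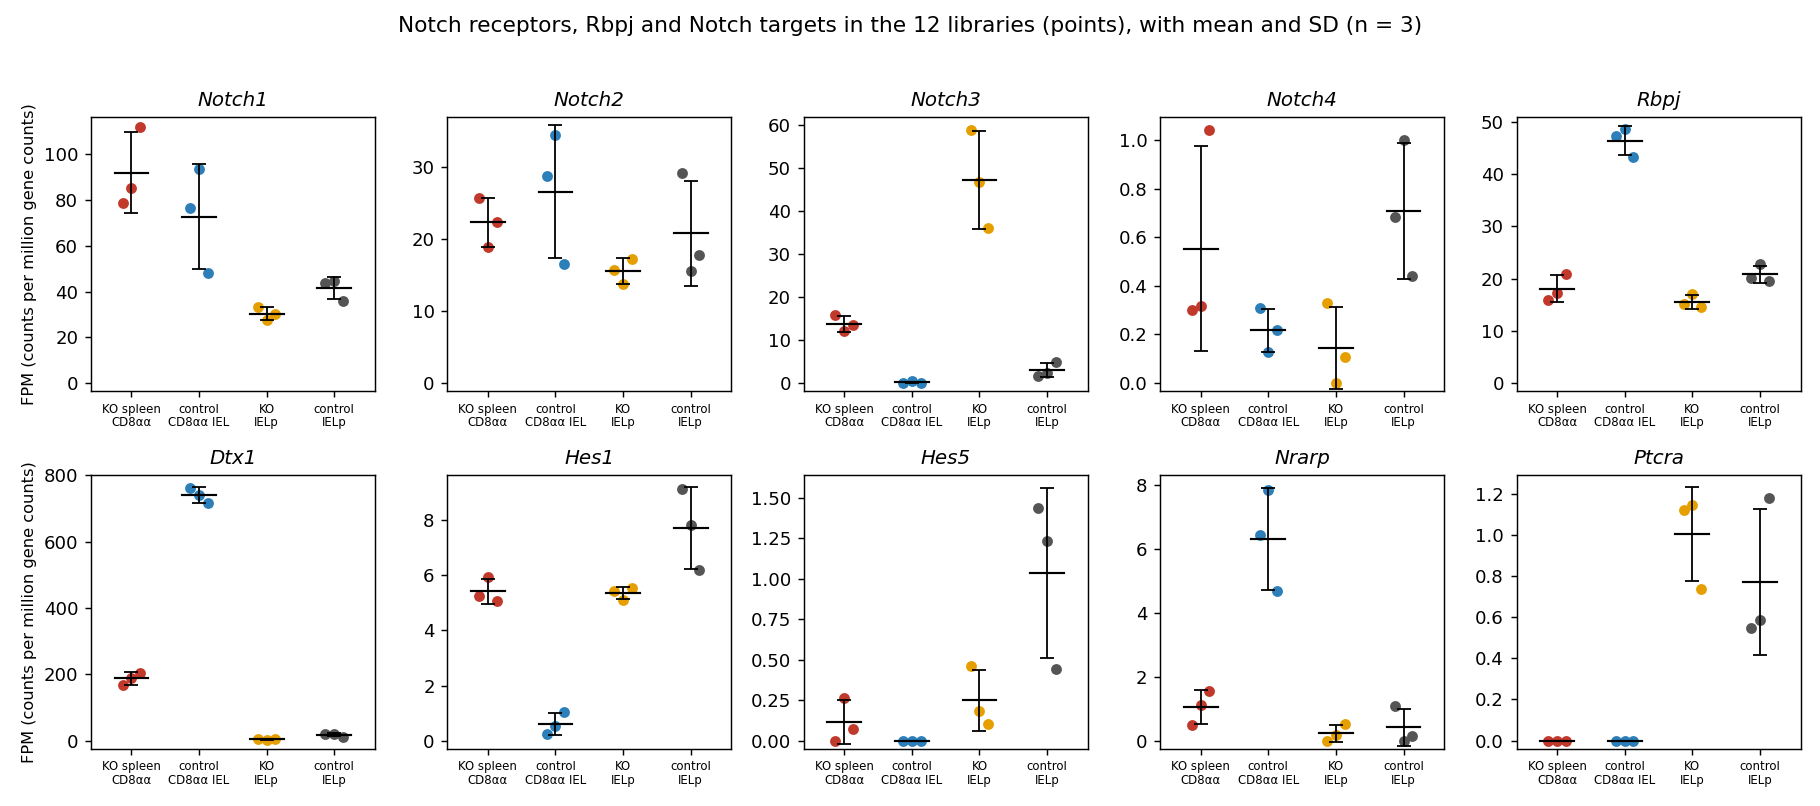
FPM of the 10 genes in each of the 12 libraries, 1 panel a gene and 3 points a group, with the group mean as a line and SD as error bars; each panel has its own axis. Notch3 lies between 36.1 and 58.9 FPM in KO IELp and at 4.86 FPM or less in control IELp, and Dtx1 lies between 716 and 763 FPM in control IELs.

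Notch1, the receptor of T lineage commitment (chromosome 2, 26457903 to 26516663, minus strand, mm10), went the other way from Notch3 in the precursors. It had 33.2, 27.5 and 30.3 FPM in KO IELp, against 43.7, 44.8 and 36.0 FPM in control IELp. The groups did not overlap, and the log2 fold change was -0.43 (SE 0.11, edgeR adjusted p = 0.0176). The call was lost in 5 of the 13 alternative fits: without control IELp replicate 1 (adjusted p = 0.0538), control IELp replicate 2 (0.0893), KO IELp replicate 2 (0.0916) or KO IELp replicate 3 (0.0581), and with 1 fit of all 12 libraries (0.188).

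In the mature cells Notch1 was at 78.8, 85.2 and 112 FPM in KO spleen CD8αα cells, against 76.3, 93.6 and 48.3 FPM in control IELs. These groups overlapped, and the log2 fold change was 0.22 (95% interval -0.26 to 0.69, edgeR adjusted p = 0.411), or -0.0020 without IEL replicate 3, the lowest IEL library. Notch1 rose between precursor and mature cell in both genotypes, by 1.71 on the log2 scale in KO spleen cells against KO IELp (SE 0.12, edgeR adjusted p = 1.52e-07) and by 1.04 in control IELs against control IELp (SE 0.20, adjusted p = 9.67e-04). Antisense transcripts share 9.76% of its exon bases.

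Notch2, the receptor known for marginal zone B cells, differed little (chromosome 3, 98013527 to 98150361, plus strand, mm10). It had 15.8, 13.7 and 17.3 FPM in KO IELp, against 29.1, 15.5 and 17.8 FPM in control IELp, which overlap, with replicate 1 of control IELp standing highest. The log2 fold change was -0.39 (95% interval -0.81 to 0.02, edgeR adjusted p = 0.225). The mature cells had 25.7, 18.9 and 22.4 FPM in KO spleen, against 28.8, 34.6 and 16.5 FPM in control IELs, a log2 fold change of -0.37 (95% interval -0.90 to 0.16, edgeR adjusted p = 0.209). Without IEL replicate 3 it was -0.62 (adjusted p = 0.00494). Notch2 was higher in KO spleen cells than in KO IELp, by 0.63 on the log2 scale (SE 0.14, edgeR adjusted p = 0.00295, or 0.0538 in 1 fit of all 12 libraries). Control IELs against control IELp gave 0.58 (95% interval -0.04 to 1.2, edgeR adjusted p = 0.0895), and 0.84 without IEL replicate 3 (adjusted p = 0.00332) or 0.90 without control IELp replicate 1 (adjusted p = 0.0224). That call was also made with DESeq2 (0.59, adjusted p = 0.0410), with no filter on low counts (0.59, adjusted p = 0.0161) and with 1 fit of all 12 libraries (0.60, adjusted p = 0.0399).

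Notch4, a receptor known mainly from blood vessels (chromosome 17, 34564268 to 34588503, plus strand, mm10), was near the detection limit everywhere. It had 0.301, 0.318 and 1.04 FPM in KO spleen cells and 0.307, 0.129 and 0.217 FPM in control IELs. The precursors had 0.330, 0 and 0.105 FPM in KO, against 0.682, 1.00 and 0.442 FPM in control, or 7 counts in all in KO IELp and 33 in control IELp. These groups did not overlap, but Notch4 did not pass the filter on low counts in any of the 4 comparisons of 2 groups. With no filter the log2 fold change between the precursors was -2.25 (edgeR adjusted p = 0.0593). The 10 endothelial genes summed to 85.6 to 85.7 FPM in KO IELp and 109 to 145 FPM in control IELp, mostly Pecam1, which fell, at 82.7 ± 0.763 FPM in KO IELp and 128 ± 20.3 FPM in control IELp (SD, n = 3 each). Cdh5, Kdr, Tek, Emcn and Tie1 had no count in any library, and the part of endothelial RNA in the Notch4 values was not tested.

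Receptor levels can be set beside each other only per length, here as mean FPM per kb of exon. In KO IELp the order was Notch3 at 5.84 ± 1.41, Notch1 at 2.13 ± 0.200, Notch2 at 1.45 ± 0.166 and Notch4 at 0.0180 ± 0.0209 FPM per kb (SD, n = 3). In control IELp it was Notch1 at 2.92 ± 0.337, Notch2 at 1.93 ± 0.676, Notch3 at 0.370 ± 0.205 and Notch4 at 0.0878 ± 0.0347 FPM per kb. Notch3 was thus the highest receptor in KO IELp and the third in control IELp, and the ranges of Notch1 and Notch2 overlapped in control IELp. In KO spleen cells Notch1 led at 6.46 ± 1.24 FPM per kb, followed by Notch2 at 2.07 ± 0.319 and Notch3 at 1.71 ± 0.229, whose ranges overlapped. In control IELs Notch1 was at 5.11 ± 1.60 and Notch2 at 2.47 ± 0.855 FPM per kb, with Notch3 at 0.0184 ± 0.0256 and Notch4 at 0.0270 ± 0.0111, whose ranges overlapped. With the longest transcript as the length, the order of the receptors was the same in all 4 groups.

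**Figure D2:**
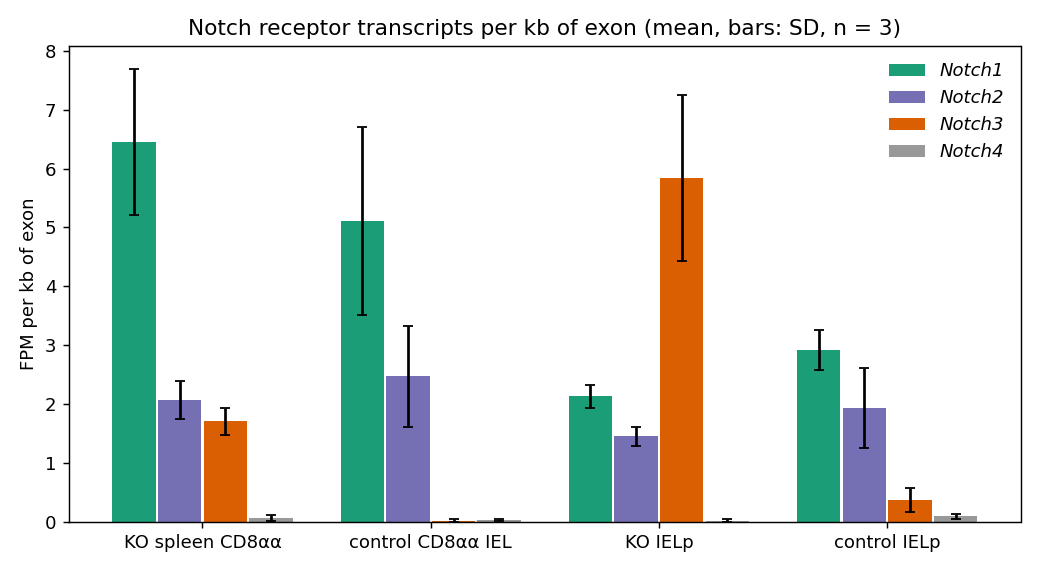
Mean FPM per kb of exon for the 4 receptors, grouped by cell population, with SD over 3 libraries as error bars. The Notch3 bar is the tallest in KO IELp (5.84) and 0.370 in control IELp, while Notch1 is the tallest in the other 3 populations.

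Rbpj, the DNA-binding partner of every Notch intracellular domain (chromosome 5, 53466152 to 53657362, plus strand, mm10), was highest in control IELs. It had 15.9, 17.2 and 20.9 FPM in KO spleen cells, against 47.3, 48.6 and 43.3 FPM in control IELs, a log2 fold change of -1.49 (SE 0.12, edgeR adjusted p = 3.02e-06), or -1.53 without IEL replicate 3. Between control IELs and control IELp the log2 fold change was 1.39 (SE 0.11, edgeR adjusted p = 9.03e-07). Between KO spleen cells and KO IELp it was 0.32 (95% interval 0.02 to 0.62, edgeR adjusted p = 0.0766), and it passed without KO spleen replicate 1 (0.40, adjusted p = 0.0426) and in 1 fit of all 12 libraries (0.32, adjusted p = 0.0452). In the precursors Rbpj was at 15.1, 17.0 and 14.5 FPM in KO, against 20.1, 22.7 and 19.6 FPM in control, which do not overlap. That log2 fold change of -0.40 (SE 0.12) passed narrowly, at an edgeR adjusted p of 0.0465. It was lost in 7 of the 13 alternative fits, with adjusted p between 0.0568 and 0.171: without each of 5 libraries in turn (control IELp replicates 1 and 2 and the 3 KO IELp libraries), with no filter, and under a replicate block.

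Dtx1 was a target whose level spanned 3.31 to 763 FPM over the 12 libraries (chromosome 5, 120680202 to 120711927, minus strand, mm10). It encodes Deltex1, an E3 ubiquitin ligase of the Notch pathway and a Notch target gene in T cells. KO IELp had 4.89, 3.31 and 5.12 FPM, against 19.4, 20.7 and 12.4 FPM in control IELp, and no library overlapped. Dtx1 fell by 1.96 on the log2 scale (SE 0.21, edgeR adjusted p = 1.99e-05), the opposite direction from Notch3, and the 13 alternative fits gave -2.15 to -1.75, all past the threshold.

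The mature cells held far more Dtx1 than the precursors in both genotypes. KO spleen cells had 168, 189.6 and 205 FPM, against 763, 742 and 716 FPM in control IELs. Dtx1 was lower in the KO cells by log2 -2.10 (SE 0.07, edgeR adjusted p = 9.26e-09), a value near that in the precursors. The step from precursor to mature cell was a log2 fold change of 5.51 in KO spleen cells against KO IELp (SE 0.13, edgeR adjusted p = 2.01e-12) and 5.62 in control IELs against control IELp (SE 0.15, adjusted p = 2.66e-10). Dtx1 is also known from B cells, whose 9 marker genes summed to 464 to 662 FPM in the IELs and 1380 to 1450 FPM in KO spleen cells. In the IELs, where Dtx1 was highest, Ms4a1, Pax5 and Ebf1 had no count, while KO spleen cells had Ms4a1 at 12.7 ± 0.973 FPM (SD, n = 3). In that comparison the B cell sum and Dtx1 moved in opposite directions, as they did in the precursors, where the sum was 554 to 582 FPM in KO IELp and 437 to 452 FPM in control IELp. In both steps from precursor to mature cell they moved in the same direction. Cd79b and Ighm were called higher in control IELs than in control IELp, Cd79b at 44.5 ± 14.5 FPM in control IELs and 19.8 ± 1.45 FPM in control IELp (SD, n = 3 each). The part of B cell RNA in these steps was not tested.

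Hes1, a transcriptional repressor that Notch induces in many tissues (chromosome 16, 30064384 to 30067796, plus strand, mm10), was lowest in control IELs. It had 5.26, 5.93 and 5.06 FPM in KO spleen cells, against 0.246, 0.515 and 1.03 FPM in control IELs. The groups lay far apart, with a log2 fold change of 3.02 (SE 0.41, edgeR adjusted p = 1.36e-04), or 3.71 without IEL replicate 3 (adjusted p = 1.57e-05). The 13 alternative fits gave 2.03 to 3.71. The control IELs held only 31 Hes1 counts in all, 19 of them in replicate 3. Control IELs against control IELp gave -3.42 (SE 0.40, edgeR adjusted p = 2.16e-05; -4.09 to -2.46 over the alternative fits), while KO spleen cells against KO IELp gave 0.13 (95% interval -0.27 to 0.53, edgeR adjusted p = 0.605). In the precursors Hes1 had 5.41, 5.12 and 5.54 FPM in KO, against 9.14, 7.82 and 6.19 FPM in control, which do not overlap. Its log2 fold change of -0.51 (95% interval -0.91 to -0.10) missed the threshold at an edgeR adjusted p of 0.102 and passed in 1 of the 13 alternative fits, without control IELp replicate 3 (-0.64, adjusted p = 0.0404).

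Hes5, a related repressor (chromosome 4, 154960923 to 154962371, plus strand, mm10), was scarce. It had 0.462, 0.181 and 0.105 FPM in KO IELp, against 1.43, 1.23 and 0.442 FPM in control IELp, ranges that overlap, or 12 counts in all in KO IELp and 48 in control IELp. It did not pass the filter, and with no filter the log2 fold change was -2.04 (edgeR adjusted p = 0.0235). KO spleen cells held 6 counts in 3 libraries and control IELs held 0, at least 17.8-fold lower than control IELp when the group's floor is set at 3 counts. Of its exon bases 31.8% are shared with the opposite-strand transcript Gm20421, which had 0 to 4 counts in KO IELp and 8 to 12 in control IELp.

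Nrarp, a feedback inhibitor of the Notch complex (chromosome 2, 25180758 to 25183339, plus strand, mm10), was highest in control IELs, as Dtx1 and Rbpj were. It had 0.501, 1.11 and 1.56 FPM in KO spleen cells, against 6.45, 7.85 and 4.67 FPM in control IELs, a log2 fold change of -2.74 (SE 0.39, edgeR adjusted p = 1.76e-04). Control IELp had 1.09, 0 and 0.147 FPM, and control IELs exceeded them by log2 4.18 (SE 0.67, edgeR adjusted p = 2.56e-04). Leaving out 1 library at a time gave 3.53 to 6.64, the highest without control IELp replicate 1. KO IELp had 0, 0.181 and 0.527 FPM, within the control range, and Nrarp did not pass the filter in the precursors. With no filter KO spleen cells exceeded KO IELp by log2 2.14 (edgeR adjusted p = 0.0139). The Nrarp value is uncertain, since 79.4% of its exon bases are shared with the antisense gene Gm38287, which had 86 to 96 counts in control IELs and 20 to 39 in KO spleen cells.

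Ptcra encodes the pre-TCR α chain, a Notch target of immature thymocytes (chromosome 17, 46755663 to 46763712, minus strand, mm10). It was at 0 in all 6 libraries of CD8αα cells. The precursors had 1.12, 1.14 and 0.738 FPM in KO, against 0.546, 0.588 and 1.18 FPM in control, which overlap (log2 fold change 0.41, 95% interval -0.57 to 1.38, edgeR adjusted p = 0.639). KO spleen cells were at least 17.2-fold lower than KO IELp (edgeR adjusted p = 2.99e-04), and control IELs at least 12.6-fold lower than control IELp, with the same floor. Of the 10 genes of immature and double-positive thymocytes, Rag1 and Rag2 were at 0 in KO spleen cells, and Rag1, Rag2, Dntt and Arpp21 in control IELs.

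**Figure D3:**
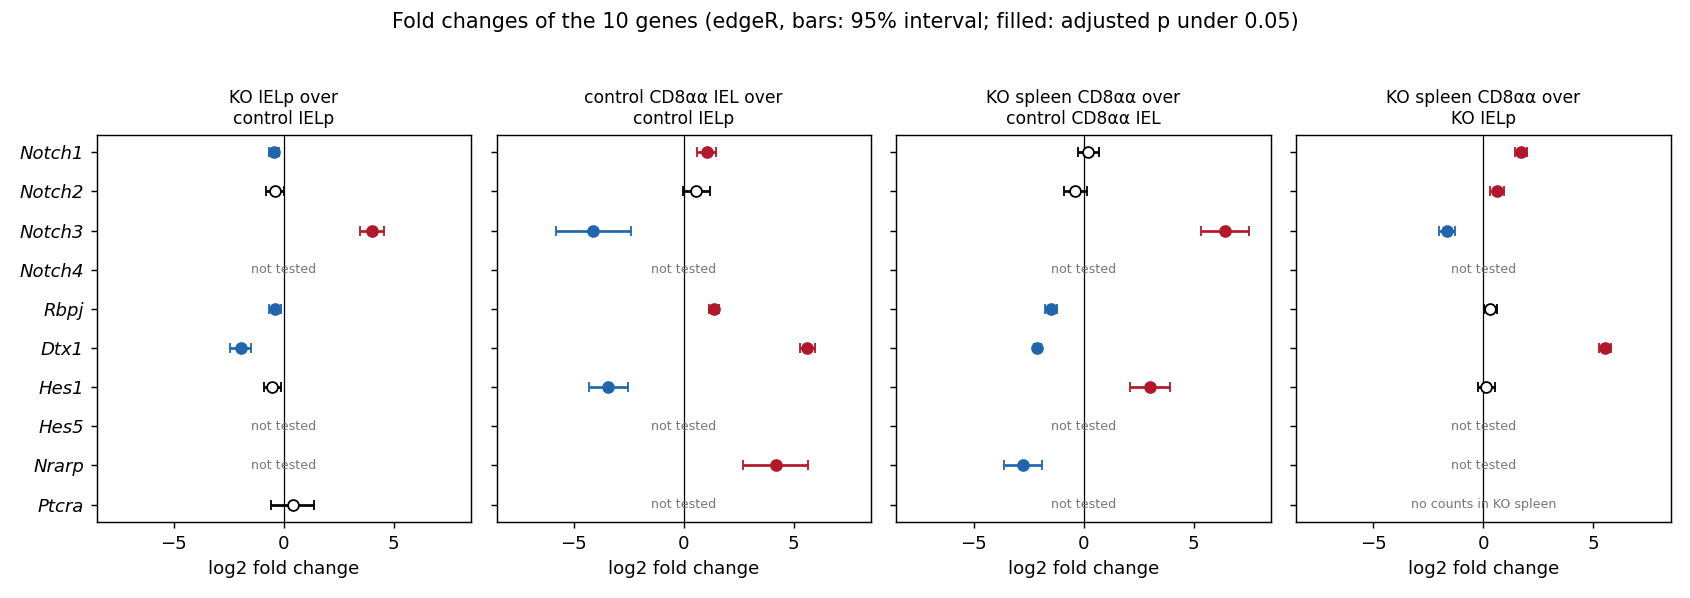
log2 fold changes of the tested genes from edgeR in the 4 comparisons, with 95% intervals as error bars and filled points for adjusted p under 0.05. Notch3 (4.02) and Dtx1 (-1.96) lie on opposite sides of 0 in KO over control IELp and again in KO spleen cells over control IELs (6.44 and -2.10).

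Counted over the members, 7 of the 10 passed the filter in the precursors, and 1 was called higher and 3 lower in KO IELp than in control IELp, against 13.1% of all 14629 genes tested called in either direction (6.48% higher and 6.58% lower). Without regard to adjusted p, 5 of the 7 did not overlap between these groups, against 29.7% of all genes tested, and Notch4, which was not tested, did not overlap either. The 3 lower calls became 1 without control IELp replicate 1 or 2 or KO IELp replicate 2 or 3, and 5 without control IELp replicate 3. Between KO spleen cells and control IELs, 2 were called higher and 3 lower of 7 tested, against 58.2% of all genes (29.1% higher and 29.2% lower), and 5 of the 7 did not overlap, against 66.2%. Control IELs against control IELp gave 4 higher and 2 lower of 7, against 64.8% (31.9% higher and 32.9% lower), with 6 of the 7 not overlapping, against 70.9%. KO spleen cells against KO IELp gave 3 higher and 2 lower of 7, against 45.0% (22.6% higher and 22.4% lower), with 5 of the 7 not overlapping, against 56.4%. Calls were common across all genes in these last 3 comparisons, and the members' counts there are a description. Without IEL replicate 3 the counts were 2 higher and 4 lower for KO spleen cells against control IELs and 5 higher and 3 lower for control IELs against control IELp. In that fit the 6 members called against control IELp passed again with the same sign, among them Notch1 (1.26), Notch3 (-3.48), Hes1 (-4.09) and Nrarp (4.36), as did the 5 called between KO spleen cells and control IELs, Dtx1 at -2.12 and Nrarp at -2.91. The 4 comparisons share groups and are not independent.

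The wider pathway was read from 7 lists with 73 other genes. In the precursors 8 of 60 tested were higher and 6 lower in KO IELp than in control IELp, beside 13.1% of all genes called (6.48% higher and 6.58% lower), with a median log2 fold change of 0.07, against -0.01 over all genes tested. The clearest was Heyl, a HES-related repressor and Notch target, at 34.5 ± 1.5 FPM in KO IELp and 15.8 ± 1.67 FPM in control IELp (SD, n = 3 each), a log2 fold change of 1.14 (SE 0.11, edgeR adjusted p = 7.63e-06). It rose while Dtx1 fell. Dtx3, a relative of Dtx1, was at 98.5 ± 3.40 FPM in KO IELp and 61.3 ± 8.26 FPM in control IELp (log2 fold change 0.70, edgeR adjusted p = 1.03e-04).

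Among genes that modify receptors or ligands, Lfng and Mfng encode Fringe enzymes that add sugar to Notch and tune its choice of ligand. Lfng fell, at 138 ± 5.95 FPM in KO IELp and 183 ± 6.04 FPM in control IELp (log2 fold change -0.39, edgeR adjusted p = 5.17e-04), while Mfng was at 172 ± 5.00 FPM in KO IELp and 146 ± 7.61 FPM in control IELp (0.26, edgeR adjusted p = 0.0116). Mib2, a ubiquitin ligase of Notch ligands, was at 55.3 ± 6.95 FPM in KO IELp and 35.7 ± 3.58 FPM in control IELp (0.65, edgeR adjusted p = 0.00103). Of 9 cleavage genes tested none rose and 3 fell, the γ-secretase subunits Aph1b, Ncstn and Psen2, where 6.58% of all genes fell. When each precursor library was left out in turn, these 3 calls held in only 2, 1 and 2 of the 6 fits. Igf1r, a growth factor receptor gene counted among Notch targets, fell, at 8.03 ± 0.379 FPM in KO IELp and 12.9 ± 1.28 FPM in control IELp (-0.66, edgeR adjusted p = 0.00793). The 2 tested ligand genes had no call. Of the 14 calls, 5 held when each precursor library was left out in turn (Heyl, Dtx3, Lfng, Mib2 and Igf1r), and the other 9 were lost in at least 2 of the 6 fits.

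In the step to control IELs, 27 of 61 tested genes were higher and 18 lower than in control IELp, beside 64.8% of all genes called (31.9% higher and 32.9% lower), with a median log2 fold change of 0.08, against -0.01 over all genes. With limma on log2(FPM + 1) the balance turned, to 22 higher and 24 lower. Gzmb, the granzyme B gene, had the lowest adjusted p, with a log2 fold change of 12.6 (edgeR adjusted p = 1.52e-12). Dtx4, another Deltex, was at 104 ± 6.31 FPM in control IELs and 3.08 ± 1.02 FPM in control IELp (SD, n = 3 each), a log2 fold change of 5.28 (SE 0.17, edgeR adjusted p = 1.06e-09). Heyl was at 218 ± 22.1 FPM in control IELs and 15.8 ± 1.67 FPM in control IELp (4.01, edgeR adjusted p = 2.69e-10). Furin, the protease that matures Notch receptors, was at 404 ± 42.2 FPM in control IELs and 99.8 ± 6.88 FPM in control IELp (2.25, edgeR adjusted p = 5.11e-09). Tcf7, a T cell transcription factor gene induced by Notch in early thymocytes, fell by 2.96 on the log2 scale (edgeR adjusted p = 4.34e-11). Also higher in control IELs than in control IELp were Numbl, a relative of the Notch inhibitor Numb (log2 fold change 3.09), Neurl3 (1.72) and Ifng (5.85), with edgeR adjusted p of 5.03e-08 or less.

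KO spleen cells differed from control IELs in 23 higher and 18 lower of 63 tested pathway genes, beside 58.2% of all genes called (29.1% higher and 29.2% lower), with a median log2 fold change of 0.11, against 0.00 over all genes. Limma on log2(FPM + 1) gave 28 higher and 14 lower. Gzmb fell by 8.62, Numbl by 2.83, Furin by 2.45 and Neurl3 by 1.74 on the log2 scale, and Tcf7 rose by 2.68, all with edgeR adjusted p of 9.02e-08 or less. Dtx4 was at 6.41 ± 1.19 FPM in KO spleen cells and 104 ± 6.31 FPM in control IELs (SD, n = 3 each; log2 fold change -4.15, edgeR adjusted p = 5.24e-09). Heyl was at 47.7 ± 3.46 FPM in KO spleen cells and 218 ± 22.1 FPM in control IELs (-2.31, edgeR adjusted p = 2.25e-08), lower in KO as Dtx1 was, whereas in the precursors Heyl was higher in KO, and the step from precursor to mature cell differed by -3.45 on the log2 scale (KO minus control, edgeR adjusted p = 9.49e-12), a contrast that carries tissue as well as genotype. Lfng was at 212 ± 5.27 FPM in KO spleen cells and 78.5 ± 9.37 FPM in control IELs (1.31, edgeR adjusted p = 9.81e-07), also the reverse of the precursors, with a difference of 1.70 in the same contrast (edgeR adjusted p = 1.87e-09). Of the 61 genes tested between KO spleen cells and KO IELp, 27 were higher and 13 lower, beside 45.0% of all genes called (22.6% higher and 22.4% lower), with a median of 0.15, against 0.00 over all genes. Trib2 (-1.18), Nedd4 (-1.02) and Hdac1 (-0.78) fell and Gzmb (3.68), Nfkb2 (0.95), Lfng (0.73) and Kdm5a (0.56) rose on the log2 scale, with edgeR adjusted p of 1.65e-06 or less. Bcl11b, a T lineage factor, was at 151 ± 12.4 FPM in KO spleen cells and 75.6 ± 3.84 FPM in KO IELp (1.10, edgeR adjusted p = 5.39e-08).

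**Figure D4:**
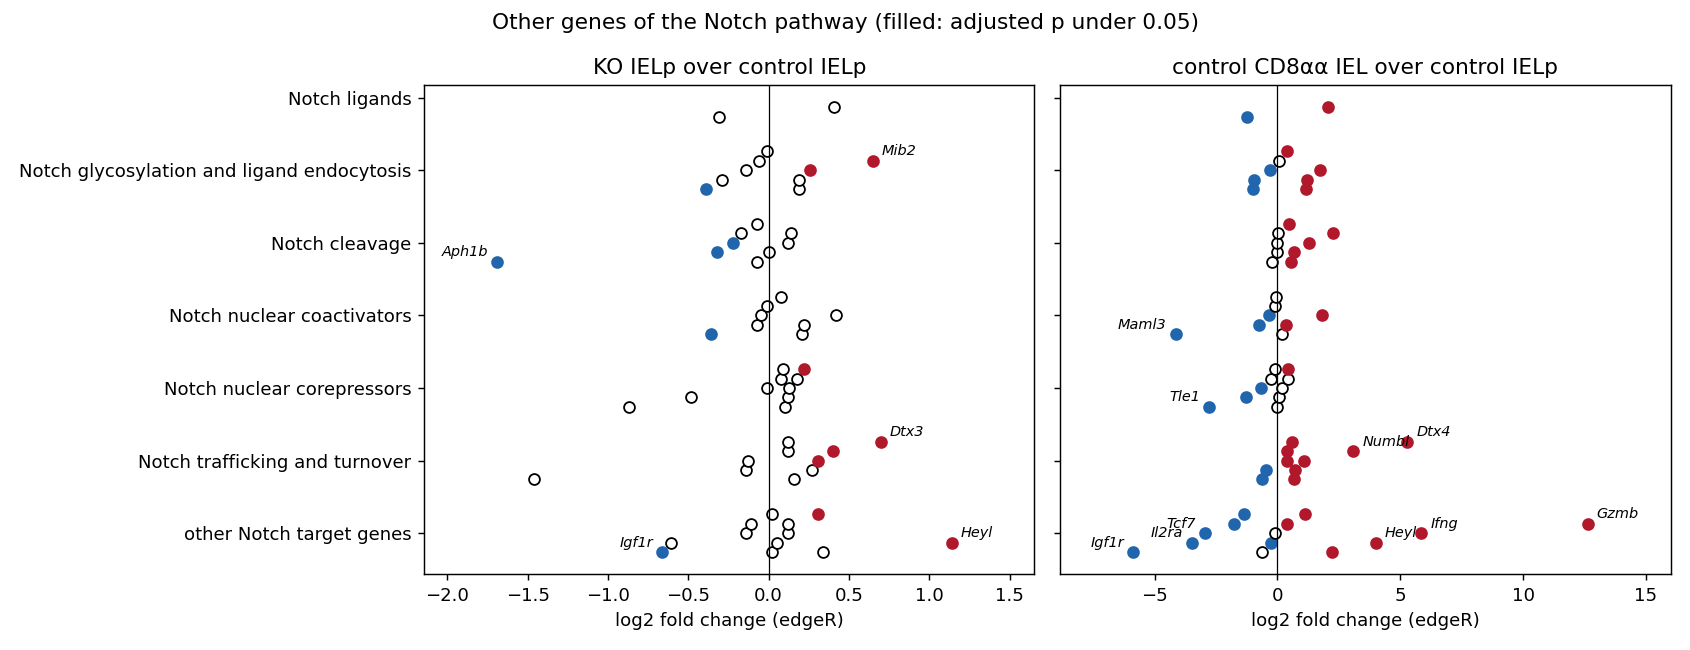
log2 fold changes of the other pathway genes by list, for KO over control IELp and for control IELs over control IELp; filled points passed adjusted p under 0.05 and the 2 panels have different axes. Heyl lies at 1.14 in the left panel and at 4.01 in the right panel.

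Marker genes of other cell types moved with the comparisons of mature cells. The 12 gut and thymic epithelial genes summed to 13.8 to 18.8 FPM in KO spleen cells and 519 to 702 FPM in control IELs, mostly Cdh1 and Epcam, and to 67.3 to 69 FPM in KO IELp and 67.3 to 75.3 FPM in control IELp. Among the control IELs Krt8, Krt19, Krt20 and Cdh17 were highest in replicate 3. Krt8 was at 22.6 FPM there, against 1.35 and 1.54 FPM in replicates 1 and 2. Krt19 was at 22 FPM there, against 0.369 and 0.129 FPM. The 5 γδ T cell genes summed to 61.3 to 65.0 FPM in KO spleen cells and 299 to 338 FPM in control IELs, a sum made mostly of Tcrg-C1, at 45.5 ± 1.26 FPM in KO spleen cells and 315 ± 24.8 FPM in control IELs (SD, n = 3 each). The other 2 tested genes of that list, Trdc and Cd163l1, were called higher in KO spleen cells. The 10 myeloid genes summed to 72.1 to 93.8 FPM in KO spleen cells and 257 to 374 FPM in control IELs, where Itgax averaged 305 FPM. Of the 7 myeloid genes tested 5 were called higher in KO spleen cells (Adgre1, C1qa, C1qb, Csf1r and Lyz2) and 2 lower, with Lyz2 at 12.3 ± 8.32 FPM in KO spleen cells and 0.0724 ± 0.126 FPM in control IELs. The part of these cells' RNA in the differences of Rbpj, Dtx1, Hes1 and Nrarp between the tissues was not tested.

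Whether the step from precursor to mature CD8αα cell differed between the genotypes was tested for each gene as the KO step minus the control step, a contrast that called 46.7% of 15757 genes and carries the difference of tissue. For Dtx1 the difference of the log2 steps was -0.14 (SE 0.23, edgeR adjusted p = 0.658), and it was 0.65 for Notch1 (adjusted p = 0.0517), 0.02 for Notch2 (adjusted p = 0.971) and -2.08 for Nrarp (adjusted p = 0.186). Nrarp ranged between -4.55 and -0.737 as libraries were left out in turn, and passed without control IELp replicate 1 (-4.55, adjusted p = 0.0127). Notch1 passed in 5 of 16 alternative fits: with no filter on low counts (adjusted p = 0.00159), with DESeq2 (0.0339), and without IEL replicate 2 (0.00894), KO spleen replicate 1 (0.0370) or control IELp replicate 3 (0.0447). The steps differed for Hes1 (3.52, edgeR adjusted p = 3.82e-06), Rbpj (-1.09, adjusted p = 6.01e-05), Notch3 (2.42, adjusted p = 0.0178, lost without IEL replicate 1 or 3) and the scarce Notch4 (3.40, adjusted p = 0.0225, lost in 5 fits that left out a library, with adjusted p between 0.0561 and 0.0873).

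The genes whose log2(FPM + 1) followed each member most closely over the 12 libraries are given as a description, since the points share their groups and libraries. For Notch3 they were Ccng1, a p53-responsive cyclin gene (Pearson r = 0.988), Pdzk1 (0.985) and Slc18a2 (0.973), among 8763 genes compared, of which 53 exceeded 0.9. Pdzk1 averaged 64.1 FPM in KO spleen cells, 13.2 FPM in control IELs, 172.6 FPM in KO IELp and 32.5 FPM in control IELp. For Dtx1 they were Mctp2 (0.995), Il21r (0.994) and Vsir (0.994), with 361 genes over 0.9, and for Rbpj Coq10b (0.989), Mvk (0.988) and Tmbim1 (0.988), with 473. Notch1 was most like Znfx1 (0.968), Trim34a (0.968) and Itpr3 (0.965), with 72 over 0.9, and Notch2 most like Ubr4 (0.925), the only one of the 8763 over 0.9.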

How the data were processed

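RNA was amplified with a SMARTer Ultra Low kit and sequenced from Nextera XT libraries as 76-base pairs, per the labels' protocols. Per the submitters' processing notes, bcl2fastq 2.17, Trimmomatic, STAR, HTSeq and DESeq2 were used with build mm10; neither the annotation nor how strand was counted is given there. The authors deposited raw read counts for 48663 genes and 5 summary rows without a gene (58.8% to 61.0% of all counted pairs, left out here), and FPM for 26629 genes. The deposited FPM values equal CPM of the gene rows, since counts recovered from them differed from the deposited counts by at most 8.12e-05. In 27 rows the symbol reads as a date, and no member is among them.

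Each pair of groups was fitted with edgeR 4.0.16 on its 6 libraries (filterByExpr, TMM, glmQLFit and glmQLFTest, R 4.3.3), with Benjamini-Hochberg adjustment over all genes tested and a threshold of 0.05. The step contrast used all 12 libraries. SE is the fold change divided by the square root of F. The scripts were tested on simulated data. Alternatives were median-of-ratios size factors, DESeq2 1.42.0, no filter, a replicate block, 1 fit of all 12 libraries, limma 3.58.1 on log2(FPM + 1) or log2(FPM + 0.1), and leaving out each library. FPM were averaged per group as mean ± SD. Positions and exon lengths came from GENCODE vM21 on mm10, and promoters from RefSeq. A fold against a group with no count used a floor of 3 counts over the group, which covers counting error only, as PCR reads are not independent molecules. Pathway genes were named where called, at 10 FPM or more in the higher group, up to 8 a comparison by lowest adjusted p, and the most alike genes as the 3 highest Pearson correlations among genes with a mean of 10 FPM or more; other named pathway and marker genes were chosen after their values were seen. The members and lists were chosen with earlier results of these data known.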

Additional observations from a re-analysis of the deposited data

Results flagged for a closer look

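The step from IEL precursor to mature CD8αα cell was compared between KO and control on the log2 scale. The contrast was KO spleen cells over KO IELp, minus control IELs over control IELp. It was called for 4 of the 9 members tested, against 46.7% of all 15757 genes tested. Calls were thus common across all genes, and the count of members is a description. For each of the 4 members the spleen and the gut stand in the contrast beside the genotype, and tissue and genotype cannot be told apart.

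Notch3 gave a difference of 2.42 (SE 0.78, edgeR adjusted p = 0.0178), from a KO step of -1.65 and a control step of -4.10. The call was lost without IEL replicate 1 (2.09, adjusted p = 0.0692) and without IEL replicate 3 (1.79, adjusted p = 0.0718), and the control step ends at 7 counts. Hes1 gave 3.52 (SE 0.42, edgeR adjusted p = 3.82e-06), from a KO step of 0.13 and a control step of -3.42. Rbpj gave -1.09 (SE 0.17, edgeR adjusted p = 6.01e-05), from a KO step of 0.32 and a control step of 1.39.

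Notch4 gave 3.40 (SE 1.14, edgeR adjusted p = 0.0225) from 26 counts in KO spleen cells, 11 in control IELs, 7 in KO IELp and 33 in control IELp. It was lost in 5 of the fits that left out a library, with adjusted p between 0.0561 and 0.0873.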

How the results depend on the processing

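Of 492 values of single members under the alternatives, 450 kept their direction and side of the threshold, 20 lost and 15 gained a call, and 7 changed sign. Between KO and control IELp, leaving out 1 library at a time gave 1 to 5 members called lower (3 with all libraries), 591 to 871 genes higher (948) and 635 to 939 lower (963), the lowest without KO IELp replicate 2 for genes higher and without control IELp replicate 2 for genes lower. Control IELs against control IELp then gave 2 to 4 members lower (2), and 4 with no filter, KO spleen cells against KO IELp gave 3 to 5 higher (3), and the difference of the steps gave 2 to 5 members higher (3) and 1 to 2 lower (1), with 5 higher with no filter. Fewer samples or more genes entered these fits; the cause was not tested further. The values that changed sign were near 0: Notch1 in KO spleen cells against control IELs (-0.0020 to 0.44 with 1 library left out), and the step differences of Notch2 (-0.30 to 0.25, and -0.017 under the replicate block) and Dtx1 (-0.31 to 0.047).

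Same-numbered libraries did not deviate together (correlations -0.05 to 0.12), so the numbers are not taken to pair samples. With the replicate number as a block, KO against control IELp gave 760 genes higher and 781 lower and 1 member higher and 2 lower, Rbpj being lost, and the member counts of the other comparisons were the same. On log2(FPM + 1) in limma, the median of all genes shifted by -0.213 between control IELs and control IELp, with 3478 genes higher and 6545 lower against 4742 and 4897 in edgeR. KO spleen cells against control IELs gave 5350 and 3651 against 4323 and 4337 (median 0.111), and against KO IELp 2570 and 4632 against 3370 and 3330 (median -0.104). Depth limits Notch4, Hes5, Nrarp and Ptcra, which held 52 counts or fewer in each group, except Nrarp in control IELs with 313. Depth also limits Notch3 and Hes1 in control IELs, which held 7 and 31 counts in all.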
